A study of Mus musculus with 6 samples.

Results

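Synaptotagmins and complexins are the proteins that tie vesicle fusion at nerve terminals to calcium entry, and 10 of their genes were followed here in mouse brain synaptosomes: Syt1, Syt2, Syt3, Syt4, Syt5, Syt7, Syt11, Cplx1, Cplx2 and Cplx3. They were taken as every non-control probe of the array that its annotation names by 1 of these symbols. This gave 16 probes of 55681, and all 16 were among the 29350 probes kept for testing. The measured groups were 3 knock-in and 3 wild-type samples of total RNA from brain synaptosomes, nerve terminals pinched off from homogenised tissue together with attached postsynaptic membrane. The sample names and the design text call the first group knock-in (KI), while its genotype field reads knock-out. The allele is not given in the labels, and neither are the strain, sex and age of the mice or whether animals were pooled. The series title concerns microRNAs that target the FMR1 transcript and what this implies for FXTAS at the synapse, and the design sets knock-in against wild type. The labels do not say that the samples came from separate animals, and the spread behind each p-value may therefore be technical.

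A synaptotagmin spans the vesicle membrane once and carries a pair of C2 domains, which in most members bind calcium and then membrane lipids and SNARE proteins, the coiled proteins that fuse the membranes. Complexins are small soluble proteins that grip the assembled SNARE bundle, where they hold back spontaneous fusion and speed evoked fusion. In forebrain terminals Syt1 is the main sensor for fast release, and Cplx1 and Cplx2 are the main complexins.

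The arrays had 1 colour, and each spot gave a processed signal, a background-subtracted brightness on a linear scale with no fixed unit. The 75th percentile of that signal was 883.2, 908.6 and 910.0 on the 3 KI arrays, against 578.4, 580.2 and 822.6 on wild-type arrays 1 to 3. Differences were therefore taken on log2 signals relative to that percentile. The 3 KI arrays and wild-type array 3 shared slide 1, and wild-type arrays 1 and 2 were on slide 2. The RNA amount in the labels is 0.2 µg for 5 samples and 0.0 µg for KI replicate 1. All 7 markers of nerve terminals and postsynaptic membrane passed the filter and overlapped between groups, while 7 of 11 markers of hindbrain, midbrain and spinal cord did not pass it. Markers of striatum differed widely between arrays of both groups. With the mean of the 6 arrays set to 0, the 12 striatal markers read 2.05, 0.57 and -0.99 on the KI arrays and 1.42, -1.53 and -1.51 on the wild-type arrays (log2). In such bulk samples, fewer cells of a type and less RNA per cell cannot be told apart. The number of arrays limits the precision.

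None of the 16 probes passed the test for a difference between KI and wild type. In limma's fit over 29350 probes, 0 of the 16 had an adjusted p under 0.05, against 0.00681% of all probes. At an unadjusted p under 0.05 there were also 0 members, against 4.29% of all probes higher and 6.12% lower in KI. The KI arrays lay wholly above the wild-type arrays for 1 member, Syt4, where 7.92% of all probes did so. They lay wholly below for 0 members, where 12% of all probes did. Of the 16 probes 12 were lower in KI, with a median log2 difference of -0.15. Over all kept probes 58.3% were lower, with a median of -0.05. Taking the brightest probe of each gene, 7 of 10 genes were lower and the median was -0.08.

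**Figure D1:**
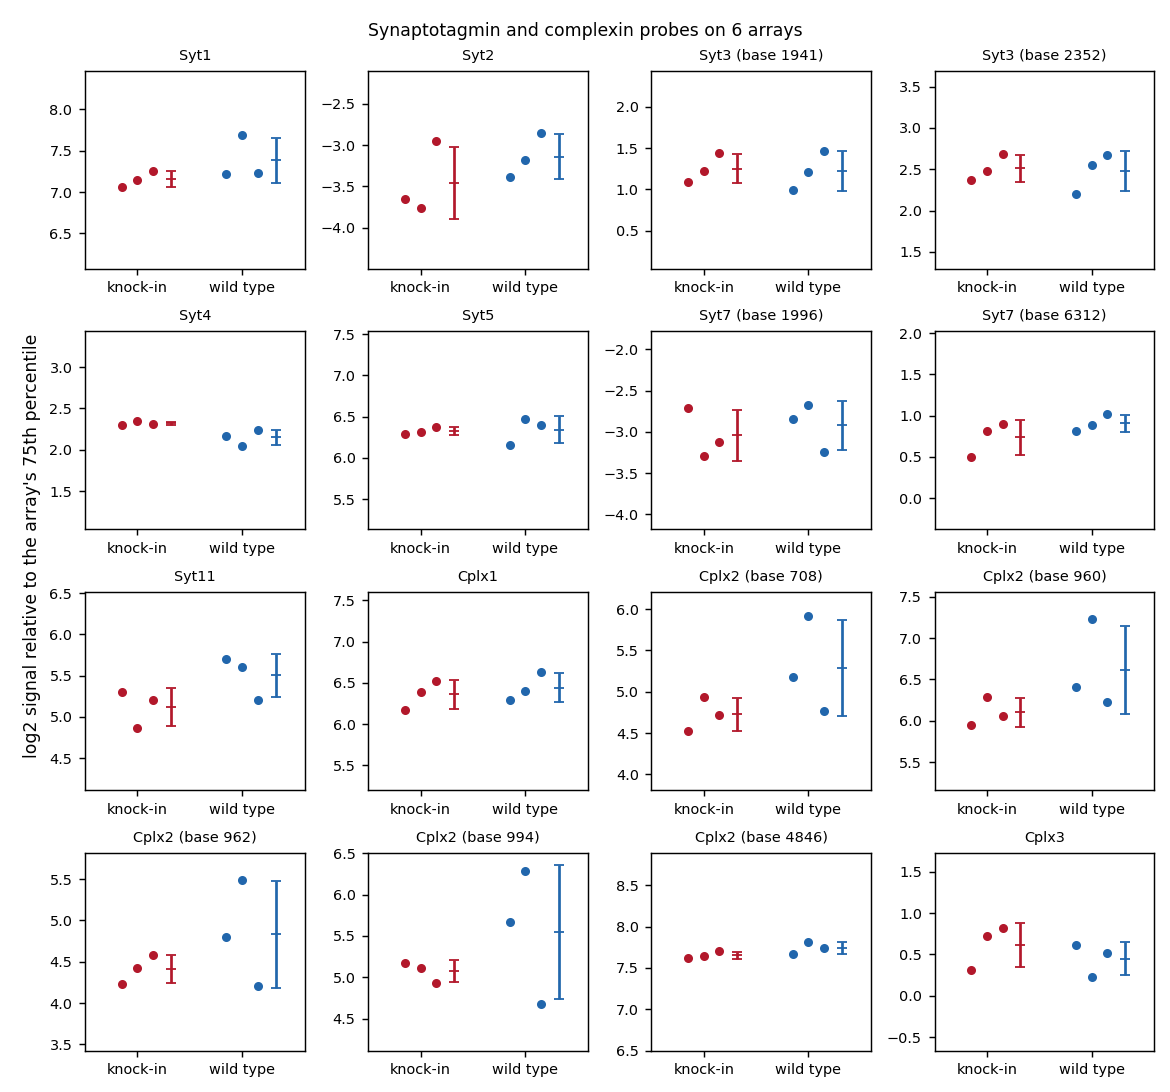
Log2 signal of the 16 probes relative to the 75th percentile of each array, in 3 knock-in (red, left) and 3 wild-type samples (blue, right), with replicates 1 to 3 from left to right in each group; the bars give the mean and SD. All panels span the same number of log2 units. Only the Syt4 panel shows groups that do not overlap, and wild-type replicate 2 stands high in the Cplx2 panels at bases 708, 960, 962 and 994.

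Syt1, the fast calcium sensor of most forebrain terminals, was measured by 1 probe on chromosome 10 at 107935310 to 107935369 (build mm9, as for all positions here). Its processed signal was 117961, 129137 and 139418 in KI, against 86302, 120213 and 123709 in wild type. After scaling it read 7.16 ± 0.10 in KI and 7.38 ± 0.27 in wild type (log2, SD, n = 3 each). Wild-type array 2 was the highest at 7.69, and the groups overlapped. The difference was -0.23 (SE 0.16, 95% interval -0.61 to 0.16, limma's adjusted p = 0.583). It was -0.07 without wild-type replicate 2, and -0.08 on slide 1 alone, where the KI arrays meet only wild-type replicate 3.

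Syt2 is the counterpart of Syt1 at very fast synapses, among them terminals of brainstem neurons and of parvalbumin interneurons. Its probe on chromosome 1 at 136645935 to 136645994 was well above background on all 6 arrays, although its signal was only 70.1, 66.9 and 117.5 in KI, against 55.3, 64.1 and 114 in wild type. The scaled values were -3.65, -3.76 and -2.95 in KI and -3.39, -3.18 and -2.85 in wild type. The third array of each group was thus the highest in its group, and the groups overlapped. The log2 difference was -0.32 (SE 0.25, interval -0.92 to 0.29, limma's adjusted p = 0.615). It was -0.57 without KI replicate 3 and -0.16 without KI replicate 2, and -0.61 on slide 1 alone. Of the 10 genes, each read by its brightest probe, Syt2 varied most over the 6 arrays, with an SD of 0.37. Pvalb, the gene that defines parvalbumin interneurons, read -0.65, -0.17 and 0.27 on the KI arrays and -0.36, 0.46 and 0.45 on the wild-type arrays, relative to its mean. The corresponding Syt2 values were -0.36, -0.47 and 0.34 in KI and -0.09, 0.12 and 0.45 in wild type. In both genes KI replicate 3 was the highest KI array and wild-type replicate 1 the lowest wild-type array. The lowest KI array and the highest wild-type array were not the same in Pvalb and Syt2. The part of parvalbumin interneurons in the Syt2 values was not tested.

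Syt5 binds calcium and has been placed on dense-core vesicles of rat neuroendocrine cells. Its probe on chromosome 7 at 4491370 to 4491429 gave 69074, 72230 and 75588 in KI, against 41227, 51369 and 69520 in wild type. The accessions listed for this probe match 0 genes in RefSeq, so its name rests on the array's annotation. The raw brightness was lower on the 2 arrays of slide 2, but after scaling KI read 6.33 ± 0.04 and wild type 6.34 ± 0.16 (SD, n = 3 each). The difference was -0.02 (interval -0.30 to 0.27, limma's adjusted p = 0.961), which bounds the fold change between 0.81 and 1.21.

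Syt3 and Syt7 bind calcium with high affinity. Syt7 supports slow, asynchronous release and facilitation, and Syt3 acts on both sides of the synapse, where it was linked to the removal of AMPA receptors in rodent neurons. Each had a pair of probes. The Syt3 probe that starts at base 2352 of the transcript (chromosome 7, 51655255 to 51655314) gave 4558, 5044 and 5873 in KI, against 2665, 3409 and 5250 in wild type. On the scaled log2 values its difference was 0.03 (interval -0.36 to 0.42, limma's adjusted p = 0.940), and the probe at base 1941 also differed by 0.03 (limma's adjusted p = 0.949). The Syt3 probes moved together from array to array, with replicate 3 the highest in each group. On slide 1 alone the differences were -0.16 at base 2352 and -0.22 at base 1941.

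For Syt7 the probe at base 6312 (chromosome 19, 10527150 to 10527209) gave 1248, 1598 and 1696 in KI, against 1015, 1074 and 1668 in wild type. Scaled, KI replicate 1 was the lowest array at 0.50, while the other 5 lay between 0.81 and 1.02. The log2 difference was -0.17 (SE 0.14, interval -0.51 to 0.17, limma's adjusted p = 0.628). The probe at base 1996 was dim, with signals of 135.2, 92.3 and 104.2 in KI and 80.6, 91.1 and 86.6 in wild type, and differed by -0.12 (SE 0.21, limma's adjusted p = 0.811). The Syt7 probes did not follow each other: KI replicate 1 was the highest KI array on the dim probe and the lowest on the other. On slide 1 alone they differed in opposite directions, at 0.20 for base 1996 and -0.28 for base 6312.

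Syt4 and Syt11 form a pair in which a serine replaces an aspartate of the first C2 domain at a position that binds calcium in other members. Syt4 acts on dense-core vesicles and its transcript is induced by depolarisation in rat cells. It was measured on chromosome 18 at 31598394 to 31598453, with signals of 4366, 4613 and 4517 in KI, against 2596, 2400 and 3871 in wild type. Scaled, KI read 2.31, 2.34 and 2.31, and wild type 2.17, 2.05 and 2.23, so each KI array lay above each wild-type array. The log2 difference was 0.17 (SE 0.10, interval -0.07 to 0.41, 1.13-fold), and it did not pass the test (limma's adjusted p = 0.540). The exact two-sided permutation p was 0.1, the smallest that 3 against 3 arrays allow. On slide 1 alone the difference was 0.09. Syt4 kept its sign in all 17 alternative settings, between 0.09 and 0.21, although some of them leave the difference unchanged by design. Syt1, Syt2, Syt11, Cplx3 and Syt7 at base 6312 also kept theirs in all 17. Cplx2 at bases 708 and 960 kept theirs in all 16 settings that included them.

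Activity-regulated genes, which neurons transcribe within minutes of firing, were higher on the KI arrays beside Syt4. All 10 listed members were higher, by a median of 0.88, with 8 at an unadjusted p under 0.05 and 0 past limma's adjusted p of 0.05. Of all 21003 genes 8577 were higher, 871 of them at an unadjusted p under 0.05. The groups overlapped for 5 of the 10, Fos, Egr2, Npas4, Junb and Nr4a1. For the other 5 the KI arrays lay wholly above, as for 1650 of all 21003 genes. The striatal markers were also higher in 12 of 12 cases (median 0.83), with 0 at an unadjusted p under 0.05. The oligodendrocyte markers were higher in 5 of 5 (median 0.33), with 1 at that threshold. The groups overlapped for each of these markers. The activity-regulated genes' mean relative to the 6 arrays was 0.51, 0.71 and 0.01 in KI and -0.21, -0.27 and -0.76 in wild type. Their summed signal in multiples of the 75th percentile was 162 to 258 in KI and 85.7 to 133 in wild type. The part of neuronal firing or of tissue make-up in the Syt4 values was not tested.

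Syt11, which restrains the uptake of vesicle membrane after release, had the smallest p of the 10 genes followed here. Its probe on chromosome 3 at 88548623 to 88548682 gave 34785, 26458 and 33570 in KI, against 30060, 28322 and 30450 in wild type. Scaled, KI read 5.30, 4.86 and 5.21 and wild type 5.70, 5.61 and 5.21. KI replicate 1 lay above wild-type replicate 3, so the groups overlapped, while wild-type arrays 1 and 2, those of slide 2, were the highest of the 6. The difference was -0.38 (SE 0.18, interval -0.82 to 0.06, 0.767-fold), with an unadjusted p of 0.0769 and limma's adjusted p = 0.501. On slide 1 alone it was -0.09, and without wild-type replicate 3 it was -0.53 (limma's adjusted p = 0.264). Genotype and slide can be told apart here only through wild-type replicate 3.

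Cplx1, the complexin of many inhibitory and fast excitatory terminals, was measured on chromosome 5 at 108947895 to 108947954. It gave 63438, 76304 and 83565 in KI, against 45324, 49057 and 81583 in wild type. The scaled values were 6.17, 6.39 and 6.52 in KI and 6.29, 6.40 and 6.63 in wild type. The groups overlapped, and replicate 3 was the highest in each. The difference was -0.08 (interval -0.43 to 0.27, limma's adjusted p = 0.817), and -0.27 on slide 1 alone.

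Cplx2, the most widespread complexin of the forebrain, had 5 probes, and they fell into 2 kinds that can be told apart by their letters. The second kind holds only 1 probe, at base 4846, which is also the brightest of the 5. The first 30 of the 60 bases of 3 of them are shown 5′ to 3′. Capitals mark the triplet GGA, and each name gives the transcript base at which the probe starts.
Cplx2 base 708: aaGGAGGAGGAGGAGGAGGAgaaGGAagag
Cplx2 base 960: aGGAGGAGGAGGAGGAGGAGGAGGAGGAgg
Cplx2 base 4846: tccccactttgtatgatgcaaatgctaaga
The probes at bases 708, 960, 962 and 994 consist of purines only (100% A or G over 60 bases), and those at bases 708 and 960 hold 16 copies of GGA each. The probe at base 4846 is 55% purine and holds 0 copies. The array annotation places the probe at base 4846 on chromosome 13 at 54485200 to 54485259, and those at bases 962 and 994, which overlap each other, close to it on the same strand. It places the probe at base 960 elsewhere on that chromosome (108816800 to 108816859) and the probe at base 708 on chromosome 5 (112438094 to 112438174). The accessions listed for the probes at bases 960, 962 and 4846 match Cplx2 alone in RefSeq. Those of the probe at base 994 match 3 genes, Cplx2 among them, and those of the probe at base 708 match 0, so its name rests on the array's annotation. On the whole array, 23 of 55681 probes were purine-only (0.0413%), and 0.239% held GGAGGAGGA on either strand.

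The probe at base 4846 gave 174282, 181269 and 189384 in KI, against 117789, 130107 and 175803 in wild type. Scaled, KI read 7.62, 7.64 and 7.70 and wild type 7.67, 7.81 and 7.74. This was the steadiest of the 16 probes, with an SD of 0.07 over the 6 arrays. Its difference was -0.08 (SE 0.10, interval -0.32 to 0.15, limma's adjusted p = 0.722). As a fold change, the interval in this fit was 0.80 to 1.11.

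The purine-only probes varied more between arrays. The probe at base 708 gave 20381, 27802 and 23925 in KI, against 21003, 35166 and 22447 in wild type. The one at base 960 gave 54637, 71157 and 60768 in KI, against 49028, 86897 and 61559 in wild type. Wild-type replicate 2 was the highest of the 6 arrays on all 4. Their log2 differences were -0.56 (SE 0.30), -0.52 (SE 0.27), -0.42 (SE 0.32) and -0.47 (SE 0.39) at bases 708, 960, 962 and 994, with limma's adjusted p between 0.519 and 0.623. Without wild-type replicate 2 they were -0.25, -0.21, -0.09 and -0.10. Without wild-type replicate 3 they were -0.83, -0.71, -0.73 and -0.91, with limma's adjusted p between 0.211 and 0.304. On slide 1 alone they were -0.04, -0.12, 0.21 and 0.40.

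Within each array, the mean of the purine-only probes was set against the probe at base 4846. The log2 contrast, purine-only minus base 4846, was -2.65, -2.45 and -2.63 on the KI arrays and -2.16, -1.58 and -2.77 on the wild-type arrays. It averaged -2.58 ± 0.11 in KI and -2.17 ± 0.60 in wild type (SD, n = 3 each). The groups differed by -0.41 with an exact two-sided permutation p of 0.4, and by -0.11 without wild-type replicate 2. The contrast shows unequal change of the probes between arrays and carries no order of levels.

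Purine-only probes that do not carry the name Cplx2 were also high on wild-type replicate 2. Of 18 such probes past the filter, 17 had their highest value on that array, as did 36.9% of all kept probes. Their median relative to the mean of the 6 arrays was 0.84 on wild-type replicate 2. On the other arrays it was -0.15, -0.07 and -0.22 in KI and 0.09 and -0.39 in wild-type replicates 1 and 3. For the 4 purine-only Cplx2 probes the medians were -0.40, -0.13 and -0.30 in KI and 0.17, 0.89 and -0.33 in wild type. The 18 probes had a median difference of -0.36, with 16 lower in KI and 0 at an unadjusted p under 0.05. Without wild-type replicate 2, a setting added after seeing the data, the median was -0.08 and 10 were lower. The role of shared letters in these signals was not tested.

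**Figure D2:**
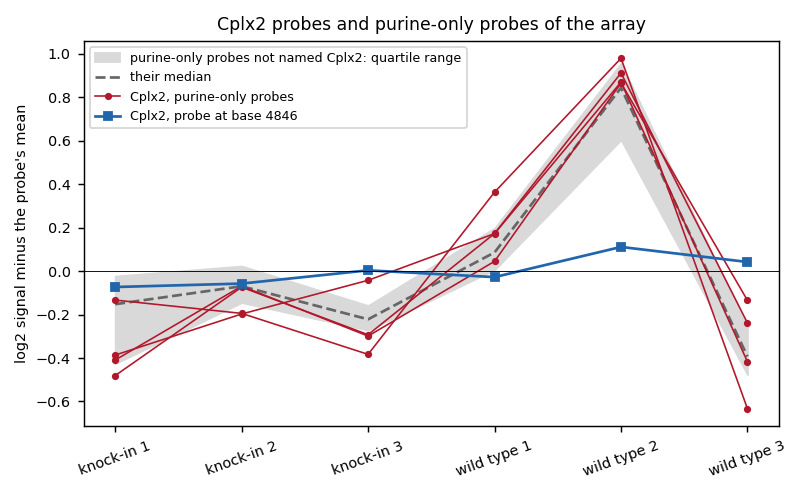
Log2 signal of each Cplx2 probe minus its own mean over the 6 arrays (vertical axis) by array (horizontal axis). Red lines are the 4 purine-only probes, the blue line is the probe at base 4846, the dashed line is the median of 18 purine-only probes not named Cplx2, and the grey band runs from their lower to their upper quartile. The red lines peak at 0.87 to 0.98 on wild-type replicate 2, where the dashed line reads 0.84 and the blue line 0.11; on the other arrays many red points lie outside the band.

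Cplx3, a complexin that is anchored to membranes by a lipid at its C-terminus and is known from retinal ribbon synapses, was measured on chromosome 9 at 57449640 to 57449699. It gave 1097, 1495 and 1609 in KI, against 884.3, 677.2 and 1177 in wild type. Scaled, KI read 0.31, 0.72 and 0.82 and wild type 0.61, 0.22 and 0.52. KI replicate 1 lay inside the wild-type range and the other KI arrays above it. The difference was 0.17 (SE 0.18, interval -0.26 to 0.60, limma's adjusted p = 0.700), 0.32 without KI replicate 1 and 0.05 without wild-type replicate 2. In the cortex Cplx3 marks neurons of layer 6b, and all 3 other markers of that layer, Ccn2, Nxph4 and Moxd1, were also higher in KI, by a median of 0.23, with 0 at an unadjusted p under 0.05, where 8577 of all 21003 genes were higher. The mean of these markers was highest on KI replicate 1 (0.24 relative to the 6 arrays), the lowest KI array for Cplx3 (-0.22). Their summed signal was 9.19 to 10.5 in KI and 6.06 to 9.73 in wild type, in multiples of the 75th percentile. The part of these neurons in the Cplx3 values was not tested.

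**Figure D3:**
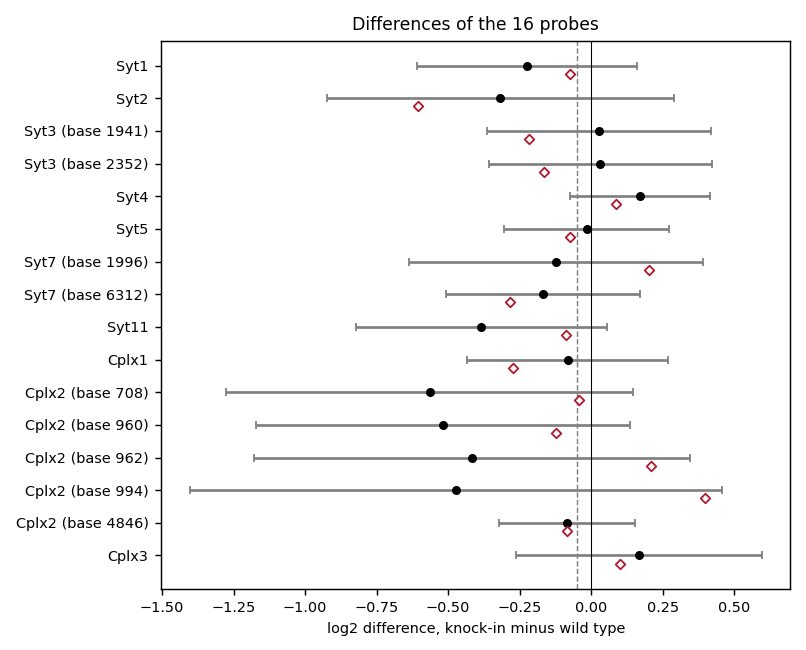
Log2 difference, knock-in minus wild type, of each of the 16 probes (black points) with limma's 95% interval (grey bars), and the difference on slide 1 alone, which has 1 wild-type array (open diamonds). The dashed line marks the median of all kept probes, -0.05. All 16 intervals include 0, and the diamonds of 5 probes lie on the other side of 0 from their black points.

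Across the members, arrays differed in ways that cut across the groups. KI replicate 1 was the lowest of the 3 KI arrays on 12 of the 16 probes (75%), against 41% of all kept probes. It was also the array with the highest striatal markers and the lowest markers of cortex and hippocampus. Those 4 cortical markers read -0.52, -0.08 and 0.17 on the KI arrays and -0.15, 0.27 and 0.29 on the wild-type arrays. Summed, the striatal markers ranged from 58.3 to 322 in KI and from 51.3 to 227 in wild type, and the cortical ones from 23.5 to 35.7 in KI and from 33.1 to 41.7 in wild type. The part of tissue make-up in these values was not tested.

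**Figure D4:**
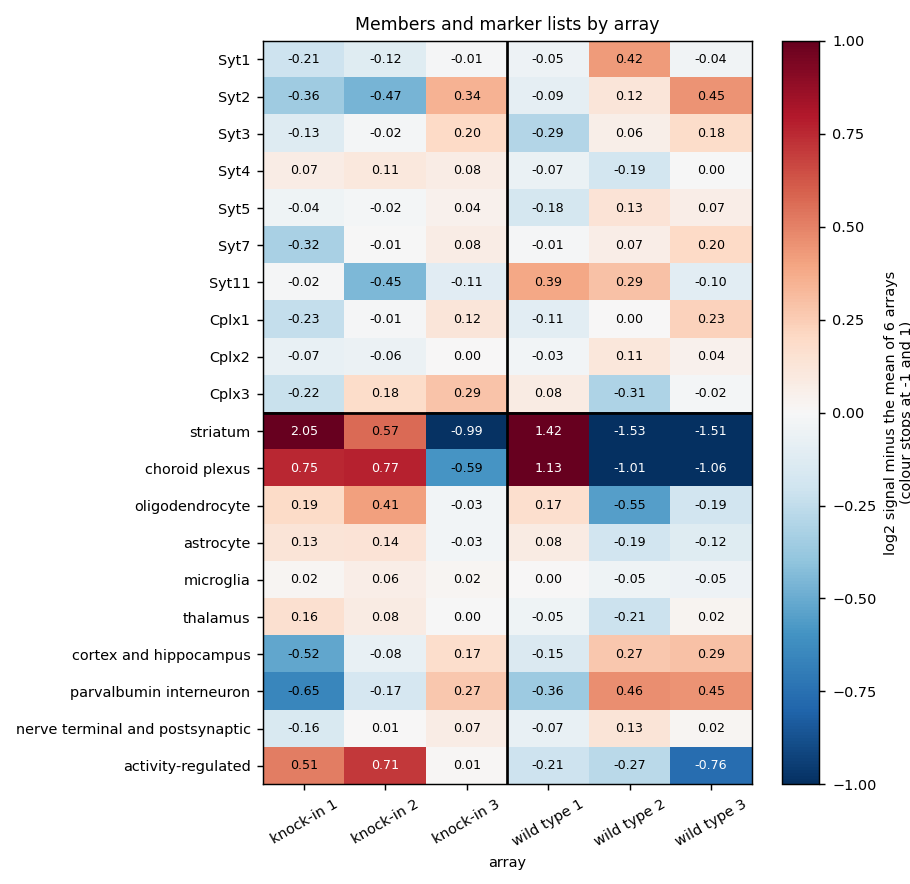
Log2 signal minus the mean over 6 arrays, by array (columns), for the brightest probe of each of the 10 genes (upper rows) and for the mean of selected marker lists (lower rows). The lists of hindbrain, cerebellum, cortical layer 6b, endothelium and sex are not drawn. Red is above and blue below the mean, and colours stop at -1 and 1. The striatal row runs from 2.05 on knock-in 1 to -1.53 on wild type 2, while the 10 genes stay between -0.47 and 0.45.

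The genes whose profile over the 6 arrays lay closest to the most variable members were sought by the root-mean-square distance between centred log2 profiles. For Syt2, among 11478 genes of sufficient spread, 2 of the 3 closest carried placeholder names and the other was Kazald1, at a distance of 0.10. For Syt11, among 14217 genes, 2 of the 3 closest were probes without a gene name and the other was 2310047D07Rik, at 0.04.

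Relatives of the members were read from a wider list of other synaptotagmins, synaptotagmin-like proteins, Doc2 proteins, extended synaptotagmins and Cplx4. Of 22 genes 19 passed the filter, 7 were higher and 12 lower in KI, and the median difference was -0.03, against -0.05 over the brightest probes of all 21003 genes. Limma's adjusted p stayed above 0.05 for all 19. At an unadjusted p under 0.05 there were 1 higher, Syt10, and 2 lower, Sytl3 and Cplx4, while 871 of all 21003 genes were higher and 1229 lower at that threshold.

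Syt10, a synaptotagmin that controls secretion of IGF-1 in mouse olfactory bulb neurons and is induced by seizures in rat brain, had a far larger difference than any of the 10 members. Its probe on chromosome 15 at 89612967 to 89613026 gave 808.6, 650.9 and 1344 in KI, against 80.4, 70.6 and 265.6 in wild type, and was well above background on all 6 arrays. Scaled, KI read -0.02 ± 0.53 and wild type -2.51 ± 0.76 (SD, n = 3 each), and each KI array lay above each wild-type array. The log2 difference was 2.49 (SE 0.43, interval 1.45 to 3.53, 5.62-fold), with an unadjusted p of 9.384e-04 and limma's adjusted p = 0.424. Of 29350 probes 10, Syt10 included, differed by at least this much in the same direction. On slide 1 alone the difference was 1.62, and leaving out 1 array moved it between 2.20 and 2.93. It was 1.82 with normexp background correction and 1.98 with the authors' value table. The signals of 80.4 and 70.6 on wild-type arrays 1 and 2 are near background, which limits the size of the fold change. Wild-type replicate 3 was the highest wild-type array, and KI replicate 3 the highest KI array.

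Sytl3, a synaptotagmin-like protein that binds Rab27, was dim, with 41.9, 42.9 and 44.2 in KI and 35.7, 50.7 and 50.8 in wild type. After scaling its groups did not overlap, and it differed by -0.54 (SE 0.16, limma's adjusted p = 0.448). Cplx4, the other lipid-anchored complexin of the retina, was also dim. It gave 66.3, 58.8 and 76.1 in KI, against 51.9, 56.9 and 81.2 in wild type. After scaling it differed by -0.37 (SE 0.13, limma's adjusted p = 0.458), without overlap. Esyt2, a tether between endoplasmic reticulum and plasma membrane, differed by 0.31 (SE 0.13, limma's adjusted p = 0.483), also without overlap. Of all 21003 genes, 1650 were higher and 2617 lower in KI without overlap.

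The proteins that synaptotagmins and complexins act on were read from 15 SNARE, Munc13 and SV2 genes, all of which passed the filter. Of these 13 were lower and 2 higher in KI (median -0.17), with 1 lower at an unadjusted p under 0.05 and 0 past limma's adjusted p of 0.05. Over all 21003 genes 59.2% were lower, 1229 of them at an unadjusted p under 0.05. The gene of smallest p was Unc13a, which primes vesicles for fusion, at -0.48 (SE 0.18, limma's adjusted p = 0.460) by its brighter probe and -0.14 by the other. Napa, the SNARE-recycling cofactor alpha-SNAP, differed by -0.27 by its brighter probe and -0.11 by the other. Unc13b differed by -0.33, and Vamp1, a vesicle SNARE, by -0.43 (SE 0.29, limma's adjusted p = 0.574) with overlapping groups.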

How the data were processed

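Total RNA of 6 brain synaptosome samples was hybridised to 1-colour Agilent arrays (Cy3). Per the file headers, Agilent Feature Extraction 10.7.3.1 made the deposited intensity columns, of which the processed intensity is detrended and background-subtracted within the array and not normalized between arrays, with probe positions on build mm9. The authors also deposited a table of log2 values. Each of its columns ranks spots as the raw median intensity of its array does (Spearman correlation 1.0000), which fixes the direction. Column medians lie between 6.55 and 6.56. These ranks and medians do not by themselves show that the scale is log2. How the authors centred the columns is not stated in any source used here.

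Each array had 62976 spots, 59305 of them non-control, with 55681 different probes and 0 saturated spots. The share well above background ranged over the arrays from 52.9% to 55.7%. Log2 processed intensities were scaled by the 75th percentile of the array, and spots of a probe were averaged without outlier spots. Probes well above background on at least 3 of 6 arrays, by any spot, were kept, which left 29350. Members were named by the array's gene name. Other genes were named through RefSeq (GRCm38.p6, names only), with 27235 probes matched by accession, 3581 by current symbol, 565 by older symbol and 24300 left as in the file, and each gene was read by its brightest kept probe.

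The difference between groups was fitted by limma (version 3.58.1, under R 4.3.3) with lmFit and eBayes, and two-sided p-values were adjusted by Benjamini-Hochberg across the kept probes, with 0.05 as the threshold. On simulated data with 200 changed probes among 29350, it recovered 38% of changes of 1 log2 unit and 82% of changes of 2. Alternatives changed the background correction, scaling, filter, unit of the fit, moderation, slide, replicate block and input table, and left out each array in turn. The members, gene lists and tests were chosen with earlier results of these data known. All probes of the 10 members were described. In the wider lists the 4 genes of smallest p were named, and the 3 closest profiles were sought for the 2 members of largest SD, among genes with at least 0.5 of the member's SD. The sequences and exact positions of 2 Cplx2 probes are not reported here.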

Additional observations from a re-analysis of the deposited data

How the results depend on the processing

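The 16 member probes were refitted in 17 other settings (in the fit on the brightest probe of each gene, 10 of them). Limma's adjusted p stayed above 0.05 for each, the lowest being 0.211 for Cplx2 at base 994 without wild-type replicate 3. Of 266 member values 237 kept their direction and 29 turned. The filter, brightest-probe, moderation and replicate-block settings leave each member's difference as in the main fit, so those values could not turn. The slide block gives the same differences as slide 1 alone, so these settings count the same values again. Syt5 turned to 0.029 with normexp, 0.11 with quantile normalization and 0.12 with the authors' value table. Cplx1 turned to 0.045 with quantile normalization and 0.0048 with the authors' table, and Cplx2 at base 4846 to 0.13 and 0.062 under the same settings. Syt7 at base 1996 turned to 0.0021 with the authors' table. With slide as a fixed block, as on slide 1 alone, Syt3 turned to -0.22 at base 1941 and -0.16 at base 2352, Syt7 at base 1996 to 0.20, and Cplx2 to 0.21 at base 962 and 0.40 at base 994. Leaving out 1 array moved Syt5 from -0.11 to 0.048, with the sign turned without any of KI 1, wild type 2 or wild type 3. The range was -0.16 to 0.014 for Cplx1 (turned without KI 1 or wild type 3). It was -0.088 to 0.15 for Syt3 at base 1941 and -0.10 to 0.13 at base 2352 (both turned without KI 3 or wild type 1). It was -0.29 to 0.0037 for Syt7 at base 1996 (turned without KI 2 or wild type 2). The cause of these changes was not tested. Without wild-type replicate 3, 5 members had an unadjusted limma p under 0.05: Syt11 and the 4 purine-only Cplx2 probes. Syt2 did so with normexp and without KI 3, Syt11 with intensity trend and robust moderation, and Cplx2 at base 960 with the replicate block.

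Over all probes 2 passed limma's threshold, against 1 with normexp, 10 with slide as a fixed block and 4 on slide 1 alone. The count was 0 with no filter, under the stricter filter of all 6 arrays above background, with the replicate block and with the authors' table, where limma's unadjusted p was under 0.05 for 4783, 2984, 3056 and 3079 probes. Leaving out 1 array gave 0 to 5: it was 0 without wild type 1 or 2 (3631 and 2508 at an unadjusted p under 0.05), 5 without KI 2, and 1 without any of the others. The fit with no filter moved the median of all probes by -0.11. The share of probes higher in KI was 41.7%, against 47.8% with quantile normalization, 48.2% in the authors' table, 33.8% with normexp and 31.3% with no filter. Equal replicate numbers were not taken as pairs in the main fit. Deviations from the group means correlated at 0.37, -0.04 and 0.22 for numbers 1 to 3. Samples of numbers 1 and 3 correlated best with their own number, and those of number 2 did not. With 3 arrays per group these correlations cannot decide whether the samples were paired. With the replicate block the SE of Syt10 was 0.14, against 0.43 in the main fit, and limma's adjusted p was 0.202. Signals near background limit Syt2 and Syt7 at base 1996, and among the relatives Sytl3 and Cplx4. They also limit Syt10 on wild-type arrays 1 and 2.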
